A study of Mus musculus with 9 samples.

Results

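The 7 genes described here, Wt1, Upk3b, Upk1b, Msln, Lrrn4, Muc16 and Bnc1, are used as markers of mesothelium, and they were taken by name from the 27179 gene IDs of the count table. Libraries came from pneumospheres, spheres that grow in suspension from dissociated lungs of C57/B6 mouse embryos at E11.5, after 3, 7 and 10 days of culture, with 3 libraries a day. Per the labels' protocols, all groups shared 1 medium with bFGF (20 ng/ml), EGF (10 ng/ml) and heparin, with 10% CO2 and 5% O2. All had lost cells that attached to ordinary plastic before plating, and cultures were split on days 3 and 7. The design has no mutant, no treated arm and no fresh lung among the analysed libraries, so each day can only be set against another day of culture. Whether same-day libraries are from separate cultures or litters is not stated, so p-values measure the spread between these libraries, which may be technical.

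Mesothelium is the sheet of epithelium-like cells that covers the lung and lines the body cavities. In the embryo it expresses the zinc finger transcription factor Wt1, gives rise to some cells of the underlying mesenchyme, and is a source of retinoic acid and of growth factors for the growing lung. Its outer surface carries uroplakins, mesothelin (Msln) and the membrane mucin Muc16, which binds mesothelin. Wt1 is not restricted to mesothelium: the epicardium, the kidney and the gonad also express it.

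Of the 7 genes Wt1 had by far the highest level in every library, and its level was lower on each later day. Lrrn4 and Bnc1 were low on day 3 and near the limit of detection afterwards. Upk3b, Upk1b and Msln had at most 12 counts summed over the 3 libraries of a day, and Muc16 had none in any library. Of the markers of mesothelium, Wt1, Lrrn4 and Bnc1 were thus detected in all day 3 libraries, while the surface proteins Upk3b, Upk1b, Msln and Muc16 were at or near 0, and none of the 3 detected genes is made by mesothelium alone. On days 7 and 10 every member but Wt1 had at most 12 counts in a library. Wt1 supplied 92.6% to 93.9% of the members' summed counts on day 3, 98.0% to 98.5% on day 7 and 95.7% to 98.0% on day 10, as counts that are not corrected for length.

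**Figure D1:**
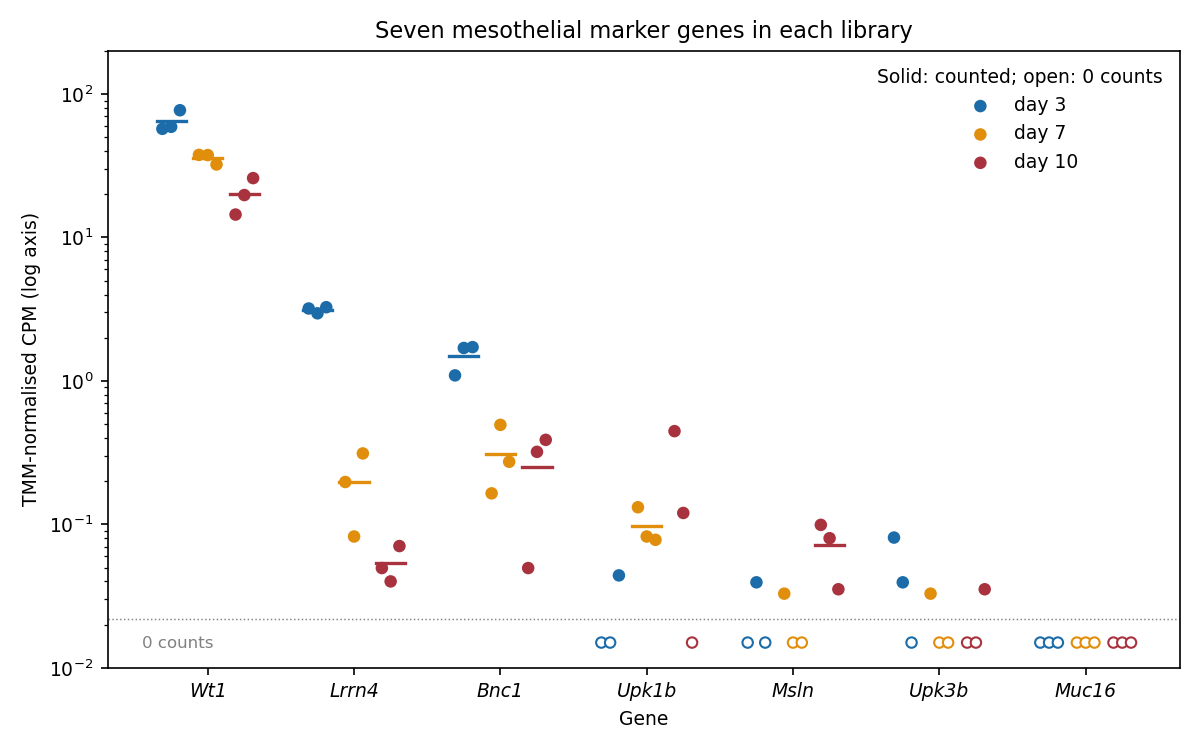
Level of each of the 7 genes in each of the 9 libraries, in CPM scaled by TMM factors on a log axis; solid points are libraries with a count, open points under the dotted line are libraries with 0 counts, and bars are the means of days on which all 3 libraries had a count. Wt1 lies between 14.4 and 77.0 CPM, Lrrn4 and Bnc1 are above 1 CPM on day 3 alone, and Muc16 is open throughout.

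Library totals ran from 20716878 to 30466712 counts, so a count of 0 allows up to 3 counts, or 0.0985 to 0.145 CPM, in a library; such limits and intervals take in no error but that of counting. Levels are CPM, read counts set relative to the library's total and scaled by TMM factors, as mean ± SD over n = 3 libraries per day, and changes are log2 fold changes from edgeR's quasi-likelihood fit to all 9 libraries with Benjamini-Hochberg adjustment over 14940 genes. In day 3 replicate 2 a single unnamed gene ID held 6.79% of the counts, against 0.169% to 0.515% in the other 8 libraries, and day 10 replicate 3 had the highest levels of Wt1 and Aldh1a1 of its day. Without both, edgeR's log2 changes for day 10 against day 3 were -1.97 for Wt1, -6.03 for Lrrn4 and -2.81 for Bnc1, and with all libraries they were -1.68, -5.73 and -2.47. Day 10 replicate 3 was also the highest of its day in Lrrn4 and Bnc1. Leaving it out thus makes these falls larger, and the refit is no check on them.

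Wt1 (Entrez 22431, chromosome 2, 105126529 to 105173614 on mm10) had 57.1, 59.0 and 77.0 CPM in the day 3 libraries. It had 37.6, 37.5 and 32.2 CPM on day 7 and 14.4, 19.7 and 25.9 CPM on day 10. No 2 days overlapped, and within day 10 replicate 1 was the lowest and replicate 3 the highest. Its mean was 64.4 ± 11.0 CPM on day 3, 35.8 ± 3.07 CPM on day 7 and 20.0 ± 5.74 CPM on day 10. Per kilobase of exon these levels were 10.4, 5.77 and 3.23 CPM, higher than those of 66.5%, 50.2% and 37.1% of the genes tested. Lrrn4 and Bnc1 stood at 0.845 and 0.323 CPM per kilobase on day 3.

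Wt1 fell to 20.0 CPM on day 10, against 64.4 CPM on day 3, a log2 change of -1.68 (SE 0.20, edgeR adjusted p = 9.2e-05). Day 7 against day 3 gave -0.85 (SE 0.19, edgeR adjusted p = 0.00679), and day 10 against day 7 gave -0.83 (SE 0.20, edgeR adjusted p = 0.0338). The change of the second interval minus that of the first was 0.02 (SE 0.34, edgeR adjusted p = 0.986), over a second interval of 3 days and a first of 4 days. Of all genes tested, 4.79% had a log2 change as low or lower for day 10 against day 3. The call of Wt1 for day 10 against day 7 ended without any 1 of 4 libraries. Its adjusted p in edgeR was then 0.0724 without day 7 replicate 1, 0.117 without replicate 2 and 0.0594 without replicate 3, and 0.0738 without day 10 replicate 2, in a range of 0.000942 to 0.117 over all alternatives. In these bulk libraries fewer cells of a type and less RNA per cell cannot be told apart.

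The noncoding RNA gene Wt1os (Entrez 329480, chromosome 2, 105076538 to 105126510), named after values were seen, ends 18 bases before Wt1 starts and is transcribed the other way. It stood at 3.51 ± 0.552, 1.35 ± 0.404 and 0.592 ± 0.0683 CPM on days 3, 7 and 10. Wt1os fell on day 10 against day 3 by 2.55 on the log2 scale (SE 0.28, edgeR adjusted p = 4.46e-05). The gene models of the pair do not overlap, and whether counting used strand is not given in the sources used here.

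Lrrn4 (Entrez 320974, chromosome 2, 132866686 to 132894010) encodes a membrane protein with leucine-rich repeats. Bnc1 (Entrez 12173, chromosome 7, 81966657 to 81992299) encodes basonuclin 1, a zinc finger protein of keratinocytes and germ cells as well as of mesothelium. Both were lower on the later days, having passed the filter on low counts through day 3. For both, a RefSeq window of 250 bases before to 50 bases after a start is shown. The Bnc1 window spans the upper end of its gene model, where a gene on the minus strand starts. The Lrrn4 window lies inside the gene model given above, at another start than the outermost one. The build is GRCm38.p6, both are on the minus strand, and capitals mark matches on either strand to GNGTGGGNG (the Wt1 and Egr type site), GGAATG (the TEAD site) and GGGCGG (the GC box).
Lrrn4, chr2:132880813-132881112: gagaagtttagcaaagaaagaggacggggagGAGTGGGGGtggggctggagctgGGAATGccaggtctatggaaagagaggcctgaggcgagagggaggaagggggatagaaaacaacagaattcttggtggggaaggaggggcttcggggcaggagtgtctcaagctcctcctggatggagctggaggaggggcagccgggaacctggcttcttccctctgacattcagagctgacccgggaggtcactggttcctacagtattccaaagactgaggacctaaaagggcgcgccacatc
Bnc1, chr7:81992250-81992549: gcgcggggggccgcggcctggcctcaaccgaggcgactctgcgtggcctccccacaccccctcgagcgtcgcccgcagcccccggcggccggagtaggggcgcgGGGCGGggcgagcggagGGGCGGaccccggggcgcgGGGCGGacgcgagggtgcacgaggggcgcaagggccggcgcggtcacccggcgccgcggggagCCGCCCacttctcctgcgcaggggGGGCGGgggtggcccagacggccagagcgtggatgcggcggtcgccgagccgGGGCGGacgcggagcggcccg
The windows share no match. Lrrn4 has 1 match to the Wt1 and Egr type site, 1 to the TEAD site and none to the GC box, while Bnc1 has 6 to the GC box and none to either of the others. The share of all 32851 RefSeq windows of this length with a match is 14.3% for the Wt1 and Egr type site, 14.7% for the TEAD site and 35.7% for the GC box. An E-box (CANNTG), which 72.3% of the windows hold, is in neither. G and C make up 58.0% of the Lrrn4 window and 83.3% of the Bnc1 window, against a median of 52.7% over all windows. These are matches of letters, with no measurement of binding. The table also held windows for Upk3b and Muc16, 4 of the 7 members in all.

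Lrrn4 had 3.20, 2.96 and 3.26 CPM in the day 3 libraries, or 79, 75 and 74 counts. It had 0.197, 0.0823 and 0.312 CPM on day 7, from 6, 2 and 8 counts. On day 10 it had 0.0496, 0.0400 and 0.0706 CPM, from 1, 1 and 2 counts. All later libraries lay below all day 3 libraries, and the day 10 values lay below those of day 7 but under the level that 3 counts give in a library.

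Lrrn4 fell by 5.73 on the log2 scale on day 10 against day 3 (SE 0.42, edgeR adjusted p = 3.52e-06) and by 3.95 on day 7 against day 3 (SE 0.34, edgeR adjusted p = 2e-05). Summed over a day, 4 counts on day 10 and 228 on day 3 give a ratio of levels of 0.0174 (95% counting interval 0.00469 to 0.0451). For day 10 against day 7 the log2 change was -1.78 (SE 0.59, edgeR adjusted p = 0.0897), which did not pass. Of all genes tested, 0.361% had a log2 change as low or lower than that of Lrrn4 for day 10 against day 3. Its RefSeq gene model overlaps that of Crls1, which encodes cardiolipin synthase and stood at 26.6 ± 1.80, 19.8 ± 0.793 and 21.4 ± 2.68 CPM on days 3, 7 and 10.

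Bnc1 had 1.09, 1.70 and 1.72 CPM in the day 3 libraries, from 27, 43 and 39 counts. It had 0.164, 0.494 and 0.273 CPM on day 7 and 0.0496, 0.320 and 0.388 CPM on day 10. Days 7 and 10 overlapped, and all of their libraries lay below those of day 3. Bnc1 fell by 2.47 on the log2 scale on day 10 against day 3 (SE 0.51, edgeR adjusted p = 0.00214). On day 7 against day 3 it fell by 2.29 (SE 0.49, edgeR adjusted p = 0.00452). Day 10 against day 7 gave -0.18 (SE 0.60, edgeR adjusted p = 0.891), an estimate too wide to show whether the level still changed after day 7.

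Wt1, Lrrn4 and Bnc1 are the 3 members that passed the filter on low counts, and the other 4 were not tested. Called genes made up 56.7% of all tested genes for day 10 against day 3, 41.8% for day 7 against day 3 and 8.51% for day 10 against day 7. In the lower direction alone these shares were 27.2%, 19.0% and 4.1%, and in the higher direction 29.5%, 22.8% and 4.41%. Days did not overlap for 64.4% of tested genes (31.9% lower on the later day) in day 10 against day 3, for 60.0% (29.6% lower) in day 7 against day 3 and for 26.0% (12.6% lower) in day 10 against day 7. For any difference among the days 53.5% of all genes were called, and edgeR's adjusted p was 0.000277 for Wt1, 3.77e-06 for Lrrn4 and 0.00221 for Bnc1. Lrrn4 and Bnc1 reached the filter in all 3 day 3 libraries, in 0 and 1 of the day 7 libraries and in none of day 10. They were thus tested through the day on which they were high, and the number of falls among the tested members says nothing further. Wt1 reached the filter in all 9 libraries. The changes of the second interval minus the first were 2.17 for Lrrn4 (SE 0.95, edgeR adjusted p = 0.234) and 2.11 for Bnc1 (SE 0.98, edgeR adjusted p = 0.245), and with Wt1 at 0.02 0 of the 3 passed in edgeR, against 8.03% of all genes tested; 0 of 3 had an unadjusted p under 0.05.

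**Figure D2:**
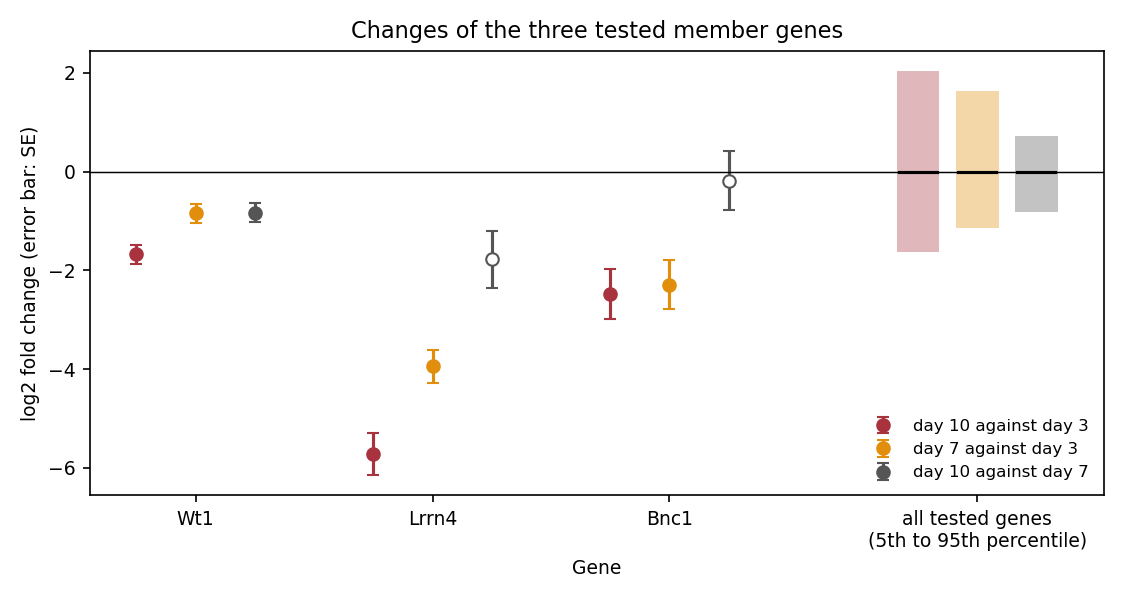
Log2 fold changes of Wt1, Lrrn4 and Bnc1 in the 3 comparisons of days from edgeR's fit, with their SE; filled points passed an adjusted p of 0.05, open points did not, and the bars on the right span the 5th to 95th percentile of all tested genes with the median as a line. For day 10 against day 3 Lrrn4 lies at -5.73, Bnc1 at -2.47 and Wt1 at -1.68, all under the 5th percentile of -1.63.

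Relative to each other the 3 genes did not keep 1 ratio. Per kilobase of exon, the level of Wt1 was 10.7 to 14.1 times that of Lrrn4 in the day 3 libraries, 61.9 to 273 times on day 7 and 175 to 296 times on day 10. The day 3 ratios did not overlap the later ones, while those of days 7 and 10 overlapped; these later ratios rest on 1 to 8 counts of Lrrn4 in a library. Lrrn4 stood at 2.18 to 3.66 times Bnc1 per kilobase on day 3, at 0.208 to 1.50 times on day 7 and at 0.156 to 1.25 times on day 10. Across the 9 libraries, log2 CPM of Wt1 and Lrrn4 had a Pearson r of 0.88, Wt1 and Bnc1 of 0.88 and Lrrn4 and Bnc1 of 0.85, values that describe these libraries, whose points share their day.

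The uroplakins and mesothelin stayed at a few counts. Upk3b, a uroplakin of mesothelium and urothelium (Entrez 100647, chromosome 5, 136038496 to 136044993), had 2, 1 and 0 counts on day 3, 1, 0 and 0 on day 7, and 0, 0 and 1 on day 10. Upk1b, the tetraspanin that pairs with uroplakins of the Upk3 type (Entrez 22268, chromosome 16, 38773182 to 38800203), had 0, 0 and 1 counts on day 3. It had 4, 2 and 2 on day 7, and 9, 3 and 0 on day 10. The later days of Upk1b were thus not below day 3, and on day 10 replicate 1 held 9 of its 12 counts. Summed over a day, Upk1b was 11.9 times higher on day 10 than on day 3, with a 95% counting interval of 1.76 to 508. Tested in edgeR without the filter on low counts, its log2 change was 3.25 (SE 1.39, adjusted p = 0.0811) and did not pass.

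Msln (Entrez 56047, chromosome 17, 25748613 to 25754378), a surface glycoprotein with a lipid anchor, had 0, 1 and 0 counts on day 3, 1, 0 and 0 on day 7, and 2, 2 and 1 on day 10. Without the filter its edgeR log2 change was 1.99 for day 10 against day 3 (SE 1.27, adjusted p = 0.246), and that of Upk3b was -1.31 (SE 1.45, adjusted p = 0.499). Muc16, the mucin known as CA125 (Entrez 73732, chromosome 9, 18495445 to 18674821), was without a count in each of the 9 libraries. With 3 counts over a day as the limit, at most 0.0412 CPM was missed on day 3, 0.0373 CPM on day 7 and 0.0408 CPM on day 10. Counts of Upk3b, Msln and Muc16 were too few to show a change or its absence. At 26350 bases Muc16 has the longest exon model of the 7.

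Other genes known from mesothelium went both ways. Of 17 listed genes besides the members, 9 were tested, and on day 10 against day 3, 3 rose and 5 fell. On day 7 against day 3, 2 rose and 6 fell, and on day 10 against day 7, 2 rose and none fell. Shares called over all tested genes were 56.7%, 41.8% and 8.51% in the same order. Calb2, Gpm6a and Aldh1a1 passed the filter on low counts mainly through the days on which they were high, so these counts describe the genes tested and support nothing about the list. For day 7 against day 3 the call of Calb2 ended without day 3 replicate 3 or day 7 replicate 1 (edgeR adjusted p up to 0.0575). Both rises on day 10 against day 7, of Aldh1a1 and Pdpn, ended under some alternatives (edgeR adjusted p up to 0.127 and 0.0529). Aldh1a2, which makes retinoic acid in mesothelium, fell to 2.80 ± 0.503 CPM on day 10, against 8.57 ± 0.960 CPM on day 3 (log2 change -1.62, SE 0.27, edgeR adjusted p = 0.000658). Nkain4, a membrane protein that binds the sodium pump, fell to 1.90 ± 0.533 CPM on day 10, against 7.07 ± 0.680 CPM on day 3. Podxl, the surface sialomucin podocalyxin, also made by endothelium, fell to 0.414 ± 0.0744 CPM on day 10, against 2.80 ± 0.517 CPM on day 3.

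Gpm6a, a membrane glycoprotein shared by neurons and mesothelium, fell to 0.259 ± 0.121 CPM on day 10, against 1.17 ± 0.0606 CPM on day 3. Calb2, which encodes the calcium-binding protein calretinin of mesothelium and neurons, had no count on day 10, against 10, 12 and 20 counts on day 3, at least 4.70-fold lower with 3 counts per library as the floor. The keratins Krt7, Krt8, Krt18 and Krt19, which mark mesothelium and other epithelia, had at most 11 counts in any library and were not tested. Itln1, Slpi, Dmkn and Fgf9, the last a growth factor made by lung mesothelium, also stayed under the filter.

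The genes of this list that rose are also known from other cells. Cldn15, a claudin of mesothelium and gut, reached 145 ± 67.7 CPM on day 10, against 16.5 ± 3.52 CPM on day 3 (log2 change 3.14, SE 0.37, edgeR adjusted p = 9.14e-05). Pdpn, the surface protein podoplanin, also of alveolar, lymphatic and stromal cells, reached 21.7 ± 1.72 CPM on day 10, against 13.9 ± 1.45 CPM on day 3. Aldh1a1, a second retinaldehyde dehydrogenase, had 86, 55 and 393 counts on day 10 and 0, 0 and 1 on day 3, so replicate 3 held most of the day 10 counts. Rspo1, a secreted amplifier of Wnt signals, stood at 2.51 ± 1.19 CPM on day 10 and 2.63 ± 0.395 CPM on day 3. On day 7 against day 3 it was called lower, with an adjusted p in edgeR of 0.0489; the fits without day 10 replicate 2, without any 1 of the day 3 libraries and without any 1 of the day 7 libraries ended that call (up to 0.148).

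Transcription factors that mesothelium and epicardium share with the mesenchyme below them went different ways. Of 9 listed and tested, 1 rose and 4 fell on day 10 against day 3 (median -0.40). On day 7 against day 3, 1 rose and 3 fell (median -0.19), and on day 10 against day 7, 1 rose and 1 fell (median -0.22). Shares called over all tested genes were 56.7%, 41.8% and 8.51% in the same order. The counts for both comparisons with day 3 lie near them and say nothing particular to these factors. Tbx18, a T-box factor of epicardium and mesenchyme, rose to 40.6 ± 3.26 CPM on day 10, against 23.1 ± 1.41 CPM on day 3 (log2 change 0.81, SE 0.10, edgeR adjusted p = 6.89e-05). Hand2, a basic helix-loop-helix factor of heart and limb, fell to 0.618 ± 0.270 CPM on day 10, against 13.1 ± 1.87 CPM on day 3 (-4.42, SE 0.32, edgeR adjusted p = 3.19e-06). The calls of Tbx18 and Hand2 for day 10 against day 7 ended under some alternatives (edgeR adjusted p up to 0.0998 and 0.0820). Tcf21 and Tbx20 fell by 1.40 and 1.67 on the log2 scale. For day 7 against day 3 the call of Tcf21 ended without day 3 replicate 1 or 2 or day 7 replicate 2 or 3 (edgeR adjusted p up to 0.107). Gata4, a zinc finger factor of coelomic and heart cells, stood at 109 ± 23.7 CPM on day 10 and 144 ± 17.3 CPM on day 3, in groups that overlapped. Its call at an adjusted p of 0.0499 in edgeR ended without day 3 replicate 1 or 3, day 7 replicate 1 or 3, or day 10 replicate 1 or 2 (up to 0.157). Gata6, Nr2f1, Nr2f2 and Osr1 were not called.

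Among 11 listed paralogues of the members 7 were tested. On day 10 against day 3, 4 rose (Lrrn1, Lrrn2, Lrrn3 and Muc1) and 1 fell (median 1.06). On day 7 against day 3, 4 rose, with Egr1 in place of Muc1, and 1 fell (median 0.81). On day 10 against day 7, 1 rose (median 0.50). Shares called over all tested genes were 56.7%, 41.8% and 8.51% in the same order. The day 7 call of Egr1 (edgeR adjusted p = 0.0223) ended without any 1 day 3 library or without day 7 replicate 1 (up to 0.0714). The other Lrrn genes, which encode neuronal leucine-rich repeat proteins, rose: Lrrn1 to 97.7 ± 20.8 CPM on day 10, against 12.8 ± 0.640 CPM on day 3 (log2 change 2.93, SE 0.21, edgeR adjusted p = 4.31e-06). Lrrn2 and Lrrn3 rose by 1.91 and 1.06 on the log2 scale. Bnc2, the second basonuclin, fell to 10.3 ± 1.15 CPM on day 10, against 29.6 ± 2.54 CPM on day 3 (log2 change -1.53, SE 0.15, edgeR adjusted p = 2.31e-05). Muc1, another membrane mucin, rose to 0.638 ± 0.140 CPM on day 10, against 0.195 ± 0.0734 CPM on day 3. Its day 3 level lay under the filter of 0.395 CPM, so Muc1 was tested through later days. The urothelial uroplakins Upk2 and Upk3a had 0 counts in all libraries, and Upk1a stood at 0.613 ± 0.162 CPM on day 10 and 0.670 ± 0.274 CPM on day 3.

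Genes tied to Wt1 as partners or targets were called in both directions by edgeR. Of 10 listed, 9 were tested. On day 10 against day 3, 2 rose and 2 fell (median -0.08). On day 7 against day 3, 2 rose and 3 fell (median -0.15), and none was called on day 10 against day 7 (median -0.03). Shares called over all tested genes were 56.7%, 41.8% and 8.51% in the same order. Podxl, also in this list, had a log2 change of -2.73 on day 10 against day 3 (SE 0.54, edgeR adjusted p = 0.00172). On day 7 against day 3 that of Podxl was -1.89 (SE 0.49, edgeR adjusted p = 0.0123). Spry1, an inhibitor of receptor tyrosine kinase signals, rose to 555 ± 38.5 CPM on day 10, against 284 ± 9.87 CPM on day 3 (log2 change 0.97, SE 0.11, edgeR adjusted p = 4.03e-05). Pawr, a protein that binds Wt1, was called higher at 5.99 ± 3.15 CPM on day 10, against 2.45 ± 0.655 CPM on day 3, and without day 3 replicate 2 it was not called (adjusted p = 0.053 in edgeR). Wtap, which also binds Wt1, was called lower by 0.27 on the log2 scale, and without day 3 replicate 2 it was not called (adjusted p = 0.0509 in edgeR, and 0.104 with day 10 replicate 3 also left out). For day 7 against day 3 the calls of Pawr and Wtap also ended without day 3 replicate 2, and that of Wtap ended without day 3 replicate 1 or 3 or day 7 replicate 1. Basp1, Wtip and Bcl2 were not called.

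**Figure D3:**
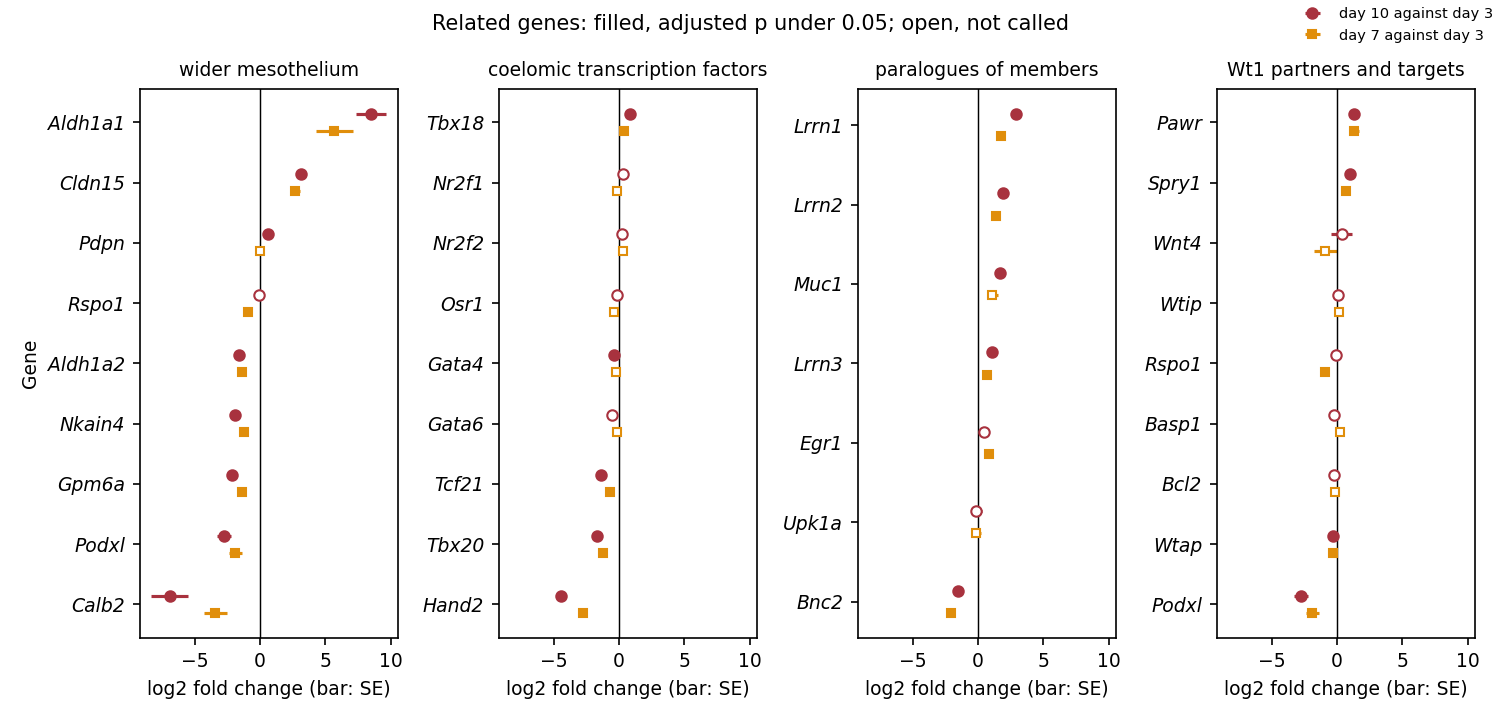
Log2 fold changes with SE of all tested genes of the 4 related lists, for day 10 against day 3 (circles) and day 7 against day 3 (squares) from edgeR's fit; filled symbols passed an adjusted p of 0.05. Lrrn1, Lrrn2 and Lrrn3 lie on the side of higher levels on the later day at 2.93, 1.91 and 1.06, and Hand2 lies at -4.42. The points of Calb2 and Aldh1a1 for day 10 against day 3 are fitted with at most 1 count on 1 of the days and give a direction, not a size.

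Markers of other cell types also changed between day 3 and day 10. All 5 tested genes of a list of 6 red cell genes fell on day 10 against day 3. The list summed to 0.149 to 0.320 CPM on day 10 and 981 to 1169 CPM on day 3. On day 10 this sum lay under the filter of 0.395 CPM for 1 gene. The red cell genes were thus tested through earlier days, and the number of their falls says nothing further. Over all tested genes 27.2% were called lower on day 10 and 29.5% higher. All 5 neuron and glia genes fell, to a sum of 3.67 to 4.60 CPM on day 10, against 106 to 138 CPM on day 3; of the genes above, Lrrn4, Gpm6a and Calb2 are also made by neurons. Of 5 endothelial genes 3 fell, and the sum of the list was at most 31.7 CPM in a library of day 10, against 71.1 to 90.7 CPM on day 3. On day 7 the endothelial sum was 76.5 to 164 CPM, not below that of day 3. Of 9 mesenchymal genes 7 rose and 2 fell, with sums of 42129 to 47991 CPM on day 10 and 14587 to 16348 CPM on day 3. The part of these cells in the changes of the members was not tested.

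Markers of other tissues that express Wt1, or that lie beside the lung, were also counted, and the source of Wt1 was not tested. Heart muscle genes summed to 21.1 to 42.6 CPM on day 3, 12.4 to 37.1 CPM on day 7 and 7.57 to 48.5 CPM on day 10. Of these, 0 of 6 tested were called for day 10 against day 3 by edgeR. Whether they came with epicardium was not tested. In the kidney and gonad list, Pax8 had 0 counts in every library, Nphs1 1 count in all, and Pax2 and Nr5a1 at most 4 in a library, while Six2, Cited1, Amhr2 and Star passed the filter; 0 of these 4 were called for day 10 against day 3 by edgeR. Of 8 lung epithelium genes Nkx2-1, Foxa1 and Shh had 0 counts everywhere. The list summed to 0.106 to 0.248 CPM on day 10 and 0.769 to 1.28 CPM on day 3. Epcam, the 1 tested, passed the filter through day 3 and was called lower on day 10 (log2 change -2.39, SE 0.57, edgeR adjusted p = 0.00486). Without fresh or unenriched lung among the libraries, the enrichment for lung epithelial cells that the design names was not tested. Smooth muscle genes summed to 405 to 813 CPM on day 10 and 231 to 247 CPM on day 3, with 3 of 5 called higher. Leukocyte genes summed to 2.32 to 4.96 CPM on day 10 and 5.36 to 7.49 CPM on day 3, with 1 of 3 tested called lower. Between these 2 days edgeR passed 56.7% of the 14940 genes fitted, 29.5% as rises and 27.2% as falls. Whether any of these short lists departs from those shares was not tested.

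**Figure D4:**
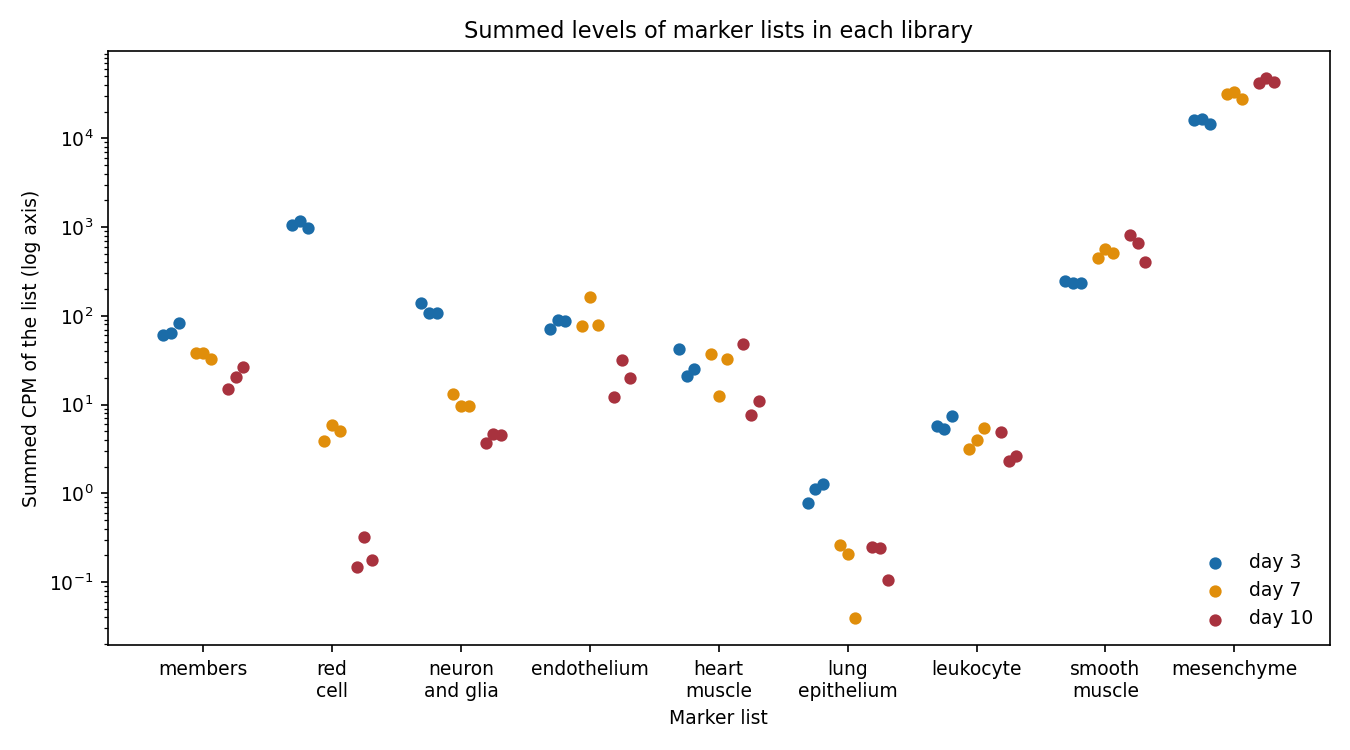
Summed CPM of the 7 members and of 8 marker lists of other cell types in each of the 9 libraries, on a log axis, by day of culture. The members lie at 15.1 to 26.4 CPM on day 10 and 61.5 to 82.0 CPM on day 3, red cell genes at 0.149 to 0.320 CPM on day 10, and mesenchymal genes above 14587 CPM throughout.

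The genes whose levels ran most like those of the tested members over the 9 libraries were named by the 5 highest Pearson r of log2 CPM over tested genes that averaged 1 CPM or more. For Wt1 they were Shb (r = 0.99), Igf2os (0.98), Ddah2 (0.98), Samd5 (0.98) and Zfp553 (0.98). Shb stood at 39.4 ± 3.67, 28.1 ± 1.36 and 20.7 ± 3.77 CPM on days 3, 7 and 10, and Igf2os, antisense to Igf2 and not separable from it without strand, at 35.4 ± 3.00, 17.1 ± 1.08 and 8.14 ± 3.19 CPM. For Lrrn4 they were the embryonic globin Hba-x, Nap1l2, Sertad4, Arnt2 and Arvcf, each at r = 0.99. Hba-x stood at 107 ± 7.01, 0.698 ± 0.249 and 0.0652 ± 0.0356 CPM on days 3, 7 and 10. For Bnc1 they were Pygo1 (0.99), Fem1c (0.98), Wapl (0.98), Gtf3c4 (0.98) and Gle1 (0.98). Points of a day share their culture time, so r describes a shared course over days; ranked by Spearman's rho, 1 of the 5 genes of Wt1 and none of those of Lrrn4 and Bnc1 came up again.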

How the data were processed

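The deposited table holds raw whole-number counts of reads for each Entrez ID in the 9 libraries. featureCounts and mm10 are named in the submitters' processing notes. Aligner, annotation, strand setting and the handling of reads that map to several places: not given in the sources used here. All 9 columns matched 1 sample each by name. RefSeq names (GRCm38.p6) were found for 25275 of 27179 IDs, and exon lengths are unions of GENCODE M21 exons. Of 27179 genes, 14940 passed filterByExpr. They were scaled by TMM factors and fitted with edgeR 4.0.16 (R 4.3.3), a robust quasi-likelihood fit to the 9 libraries together, with a threshold of 0.05 on the Benjamini-Hochberg adjusted p. SE is the absolute log2 change over the square root of F. The fit was also run on simulated counts, with few genes changed, on day 10 alone, and the spread taken from the fit itself. Far more genes were called in these data, so that run is no check on the calls here. Replicates of a day differed by a chi-square of 8.05 to 127 per degree of freedom, more than counting noise.

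Alternatives were DESeq2 1.42.0, other scalings and filters, the replicate block, the 2 days compared alone, a fit without the robust option, each library left out, and, added after seeing the data, day 3 replicate 2 and day 10 replicate 3 left out together. The members and lists were chosen with earlier results of these data known. All 7 members are named. Related genes with values come from the called genes of 4 lists, and genes alike in course are the 5 with the highest Pearson r. Wt1os and Crls1 were added for their position, and uncalled genes and cell type markers for context, after their values were seen.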

Additional observations from a re-analysis of the deposited data

Results flagged for a closer look

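Among the members and the named related genes, 2 changed differently in the 2 intervals of culture by edgeR's test of the second change minus the first, the second lasting 3 days and the first 4 days. Bnc2, the relative of Bnc1, had a difference of 2.54 (SE 0.28, edgeR adjusted p = 0.000794), with 29.6 ± 2.54, 7.20 ± 1.43 and 10.3 ± 1.15 CPM on days 3, 7 and 10. Cldn15 had a difference of -2.30 (SE 0.57, edgeR adjusted p = 0.0389), with 16.5 ± 3.52, 109 ± 32.1 and 145 ± 67.7 CPM on the same days. Over all tested genes 8.03% were called in this test.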

How the results depend on the processing

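The 3 members called for day 10 against day 3 and for day 7 against day 3 were 3 under each of the 19 alternatives, including the fits without day 3 replicate 2. For day 10 against day 7 the single call, Wt1, gave a count of 0 to 1 over the fits without 1 library, and of 0 with only the 2 days compared. Over the 4 lists of related genes together (mesothelium, transcription factors, paralogues, and Wt1 partners and targets), genes called in that comparison were 5, with 1 to 8 over the fits without 1 library, 1 with only the 2 days compared and 10 with DESeq2. All genes called there were 1271, with 304 to 1548, 290 and 2114 in the same order. The causes were not tested. Library size alone gave 39.3% of those calls as higher on day 10, against 51.8% with TMM. Whether replicate numbers pair the libraries was not settled. Column names run by replicate number and then by day. Correlations of deviations between same-numbered libraries were -0.0694 to 0.433 (median 0.110), and best with the own number in 4 of 9 libraries. Between libraries of other numbers they were -0.356 to 0.221 (median -0.0532). With the replicate block the members called were 3, 3 and 1, so the block changed no call of a member. Among the other named genes it ended the calls of Rspo1 for day 7 against day 3 (edgeR adjusted p = 0.0622) and of Wt1os for day 10 against day 7 (edgeR adjusted p = 0.0536). Of 169 alternative values of single members 164 kept their call and 5, all of Wt1 for day 10 against day 7, lost it. None was reversed. The 5 genes most like Lrrn4 shared 2 with a prior count of 0.5. The few counts of Upk3b, Upk1b and Msln leave wide counting intervals.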
